A study of Homo sapiens with 12 samples.

Results

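BCL2L11 and TRIM9 are the genes whose 3′ untranslated regions supplied the triggers that were put on plasmids here, and their annotated transcript models were followed across the 6 poly-A libraries of the study. The members were all models listed under either gene name in the StringTie tables, 23 for BCL2L11 and 6 for TRIM9, 29 of 250719 models in all. HEK293T, a human embryonic kidney line that makes the SV40 large T antigen, was transfected with 2 µg of a GFP reporter plasmid and lysed after 48 h. The GFP group received the GFP control, the BCL2L11 group a GFP reporter with a BCL2L11 trigger, and the TRIM9 group a GFP reporter with a TRIM9 trigger, with 2 libraries per group described as biological replicates. PEI or lipofectamine carried the plasmid. The sources used here do not say which of them each sample received, nor whether the replicates are separate transfections, so p-values measure only the spread between these libraries. Poly-A RNA libraries summed to 3.40 to 4.52 Gb of aligned bases (mean depth times length, over all models), and 0 of 15 pairs of libraries held identical values. The sources used here do not give the length of either insert or the bases it spans.

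A trigger of target-directed microRNA degradation is a site in an RNA that pairs with a microRNA (miRNA) along its seed and also along its 3′ part, after which the miRNA, rather than the target, is destroyed. BCL2L11 encodes BIM, a pro-apoptotic BH3-only protein that binds the survival proteins of the BCL2 family and is made in several splice forms. TRIM9 encodes a ubiquitin ligase of the class I tripartite motif family that is known mainly from neurons, where it acts with the netrin receptor DCC in axon growth. StringTie divides the reads of a locus over annotated models that share exons, so a read from a stretch that several models hold is not tied to any one of them.

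The miRNAs that the triggers address are shown because they define the sites that the plasmids carry. They are mature sequences from RefSeq (GRCh38.p14), written 5′ to 3′ with the seed, bases 2 to 8, in capitals.
miR-221-3p: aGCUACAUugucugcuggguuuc
miR-222-3p: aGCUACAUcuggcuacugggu
miR-218-5p: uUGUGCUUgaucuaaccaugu
The BCL2L11 trigger addresses miR-221-3p (chrX:45746180-45746202, minus strand) and miR-222-3p (chrX:45747036-45747056, minus strand), which share the seed GCUACAU and differ behind it. The TRIM9 trigger addresses miR-218-5p, which is encoded at 2 loci with the same mature sequence (chr4:20528299-20528319, plus strand, and chr5:168768211-168768231, minus strand).

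In the cells that received its trigger, BCL2L11 was the most abundant gene of the poly-A libraries, and TRIM9 was among the first 5 in the cells that received its own. BCL2L11 (chromosome 2, 111119378 to 111168445, plus strand, hg38) summed over its models to 11484 and 11275 FPKM (fragments scaled by model length and library total) with its trigger, rank 1 of 67053 genes in both libraries. In GFP cells it had 5.40 and 6.15 FPKM, and in TRIM9-trigger cells 3.95 and 6.32 FPKM, at ranks 7687 to 9018 over these 4 libraries. TRIM9 (chromosome 14, 50975262 to 51096061, minus strand) summed to 5297 and 3948 FPKM with its trigger, ranks 4 and 5. It had 1.74 and 2.92 FPKM in GFP cells and 1.21 and 2.30 FPKM in BCL2L11-trigger cells, at ranks 10886 to 13177. Each gene was high in its own trigger group alone, and the values of that group did not overlap those of the other 4 libraries. FPKM is divided by the length of the whole model, and a plasmid holds only a stretch of it, so these values are no measure of the number of plasmid RNAs. The share of all aligned bases needs no model length: BCL2L11 models held 6.92% and 6.99% of the bases in the libraries with the BCL2L11 trigger, and TRIM9 models 2.33% and 1.80% in those with the TRIM9 trigger. In the other 4 libraries BCL2L11 held 0.00204% to 0.00370% and TRIM9 0.000659% to 0.00164%. The replicates of the BCL2L11 trigger lay within 1.02 times of each other in summed FPKM, and those of the TRIM9 trigger within 1.34 times.

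**Figure D1:**
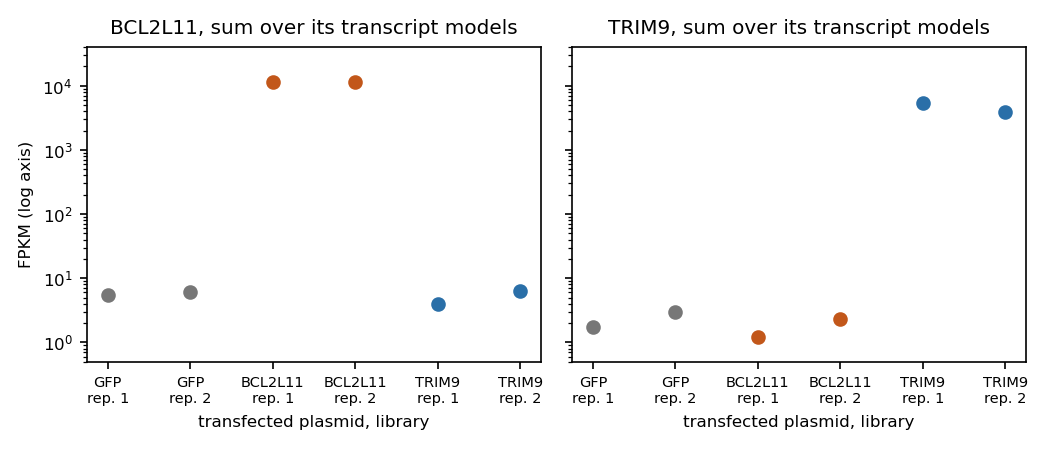
FPKM of BCL2L11 (left) and TRIM9 (right), summed over the transcript models of each gene, in each of the 6 poly-A libraries (log axis, 1 point per library, coloured by plasmid). BCL2L11 lies at 11484 and 11275 FPKM with its trigger and TRIM9 at 5297 and 3948 with its own, while all other points lie between 1.21 and 6.32.

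The gene sums were tested in limma on log2 of FPKM plus 1, in a fit over 15183 genes with all 6 libraries. The plasmid of each trigger group holds a stretch of the gene tested, so plasmid reads count toward its sum. A rise with the own trigger was thus set by the design, and its test says nothing about the endogenous gene. Its title number puts a library in set 1 (numbers up to 3) or set 2 (numbers from 4), each with 1 library per plasmid. On the log2 scale BCL2L11 rose against GFP by 10.72 with its own trigger (SE 0.32, adjusted p = 6.92e-05 in limma), by 10.81 in set 1 and 10.62 in set 2. TRIM9 rose with its own trigger by 10.45 (SE 0.36, adjusted p = 1.84e-04 in limma), 10.92 in set 1 and 9.97 in set 2. BCL2L11 and TRIM9 were the 1 gene called in each comparison with GFP, where 0.00659% of genes were called for BCL2L11 and 0.00659% for TRIM9. Between the triggers, which uses no GFP library as a control, both genes were called and no other, 0.0132% of genes. There BCL2L11 stood at 10.88 (SE 0.32, adjusted p = 6.20e-05 in limma) and TRIM9 at -10.73 (SE 0.36, adjusted p = 7.65e-05 in limma). These calls of the 2 genes were kept in all 13 alternative fits of each comparison. Both comparisons with GFP share the GFP libraries.

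By design, the group that received the other plasmid held no plasmid sequence of the gene read there. Whether all reads counted for that gene came from the endogenous locus was not tested. With the TRIM9 trigger BCL2L11 stood at -0.17 (SE 0.32, adjusted p = 0.9999 in limma) against GFP, and at -0.37 and 0.03 within the library sets. With the BCL2L11 trigger TRIM9 stood at -0.28 (SE 0.36, adjusted p = 0.9999 in limma), at -0.31 and -0.25 within the sets. Neither difference exceeded its standard error, and the libraries of these groups overlapped for BCL2L11 and for TRIM9. In order of level, BCL2L11 in TRIM9-trigger cells (mean 5.13 FPKM, SD 1.67) and in GFP cells (5.78, SD 0.53) were neighbours that did not differ beyond their spread. The same held for TRIM9 in BCL2L11-trigger cells (1.75, SD 0.77) and in GFP cells (2.33, SD 0.84). These SDs also hold any difference between the library sets, and within each set TRIM9 stood lower with the BCL2L11 trigger. In bulk RNA fewer expressing cells and less RNA per cell cannot be told apart.

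The trigger reads went to the models with 1 particular 3′ end of each gene. The 23 BCL2L11 models have 2 to 6 exons and lengths of 425 to 5231 bases, and their 3′ ends fall into 9 groups when ends within 50 bases are joined. The most distal end, at positions 111168444 and 111168445, is shared by 8 models of 4995 to 5231 bases, the longest of the gene. These 8 models held 99.9968% and 99.9938% of the BCL2L11 FPKM in the libraries with the trigger (11484 and 11274 FPKM). The other 15 models, which end from 111123960 to 111165048, summed there to 0.368 and 0.702 FPKM. They summed to 2.22 and 0.201 FPKM in GFP cells and to 0.640 and 0.747 FPKM with the TRIM9 trigger, so the libraries with the BCL2L11 trigger lay inside the range of the others. No single one of these 15 models exceeded 0.261 FPKM in a library with the trigger. At the distal end GFP cells had 3.18 and 5.95 FPKM, and TRIM9-trigger cells 3.31 and 5.57. The end nearest to it, that of ENST00000308659.12 at 111165048, had 0.0714 and 0.102 FPKM with the trigger against 0.531 and 0.0506 in GFP cells.

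TRIM9 differed in that its trigger reads went to 1 model with an end that no other model shares. ENST00000360392.4 (7 exons, 3726 bases) ends at 50996064, upstream of the 3′ ends of all other TRIM9 models, which lie from 50975262 to 50982865 on the minus strand. It reached 5296 and 3947 FPKM with the TRIM9 trigger. GFP cells had 0.176 and 0.593 FPKM of it, and cells with the BCL2L11 trigger 0.271 and 0.663. Its share of the TRIM9 FPKM was 99.9771% and 99.9614% with the trigger, and 10.1% to 28.9% in the other 4 libraries. The leading model of those 4 libraries was ENST00000298355.7 (10 exons, 5284 bases), which spans the gene to its most distal end at 50975262. GFP cells had 1.55 and 2.07 FPKM of this model. The BCL2L11 trigger gave 0.877 and 1.49, and the TRIM9 trigger 1.07 and 1.17. Its values with the TRIM9 trigger lay below both GFP values and inside the range of the BCL2L11 trigger. An order of 2 libraries against 2 carries little weight, and how many other models show it was not tested. In limma over all models the log2 difference from GFP was -0.40 (SE 0.40) and was not called.

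**Figure D2:**
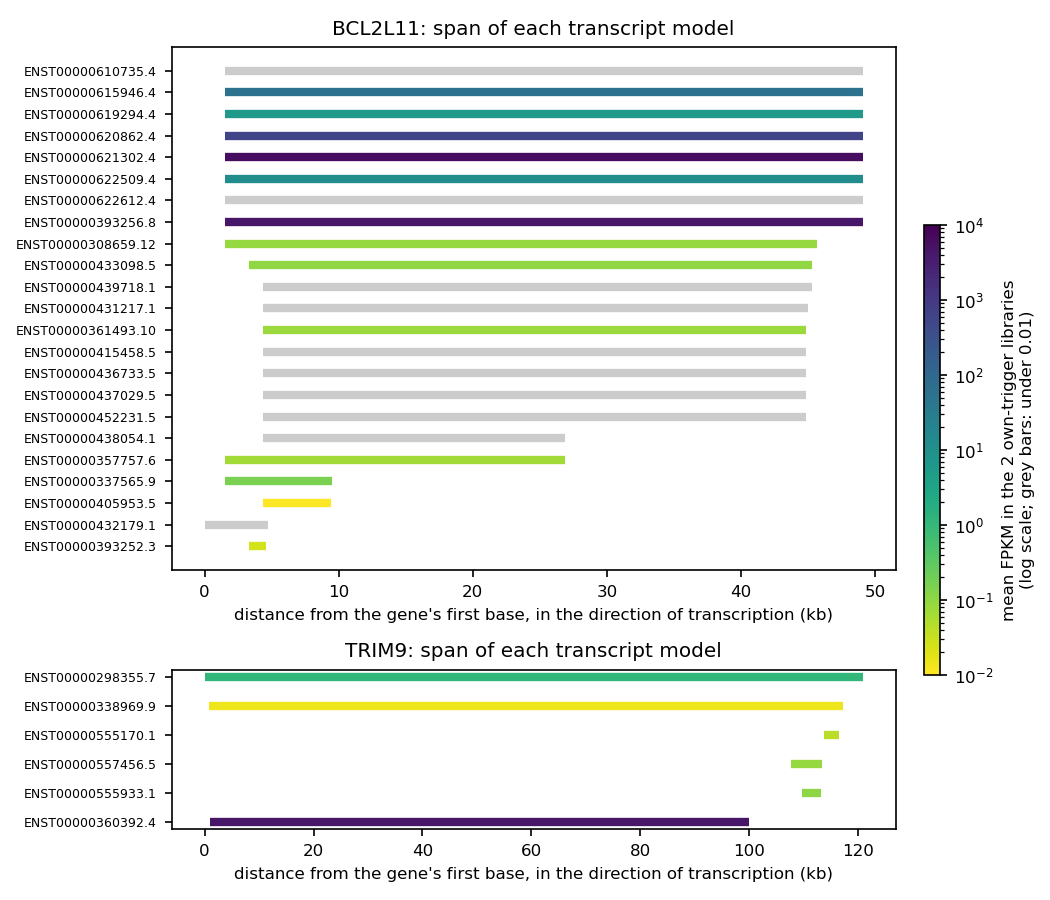
Genomic span of each of the 23 BCL2L11 (top) and 6 TRIM9 (bottom) transcript models, in kb from the first base of the gene in the direction of transcription, coloured by mean FPKM over the 2 libraries with the gene's own trigger (log colour scale, grey under 0.01). Exons are not drawn. The dark bars of BCL2L11 are models with the most distal 3′ end, and the dark bar of TRIM9 is ENST00000360392.4, which ends before the others.

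Which of the 8 distal BCL2L11 models received the reads differed between the replicates. ENST00000621302.4 (5 exons, 5224 bases) had 10371 FPKM in replicate 1 of the BCL2L11 trigger and 1995 in replicate 2, which is 90.3% and 17.7% of the gene. ENST00000393256.8 (4 exons, 5098 bases) had 523 and 8464 FPKM, 4.56% and 75.1% of the gene. The replicates thus differed 5.20-fold and 16.2-fold in these models while the gene sum differed 1.02-fold. In mean read depth, the leading models stood at 51425 in replicate 1 (ENST00000621302.4) and 41927 in replicate 2 (ENST00000393256.8). ENST00000620862.4 (6 exons, 5044 bases) followed these models in both libraries, with 493 and 761 FPKM. ENST00000615946.4 (6 exons, 5026 bases) had 85.5 and 27.9 FPKM, and ENST00000619294.4 (5 exons, 5132 bases) 11.3 and 0.926. ENST00000622509.4 (5 exons, 5231 bases) was listed at 0 in replicate 1 and had 24.3 FPKM in replicate 2. ENST00000622612.4 and ENST00000610735.4 end at the same base, 111168445, and were listed at 0 in both libraries with the trigger.

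In the libraries without the BCL2L11 trigger the BCL2L11 reads also moved between models. The leading model in GFP replicate 1 was ENST00000622612.4 (3 exons, 4995 bases) with 2.80 FPKM, which had 0.278 FPKM in GFP replicate 2 and was listed at 0 in the other 4 libraries. In GFP replicate 2 the leading model was ENST00000393256.8 with 2.64 FPKM, listed at 0 in GFP replicate 1. In the TRIM9-trigger cells ENST00000620862.4 led in replicate 1 with 1.65 FPKM, and ENST00000393256.8 in replicate 2 with 3.39. Of the models with other ends, ENST00000337565.9 (4 exons, 720 bases) had 1.005 FPKM in GFP replicate 1 and 0.0209 to 0.261 elsewhere. ENST00000433098.5 (6 exons, 1197 bases) lay between 0 and 0.203 FPKM in the 6 libraries. Of the 23 models 6 were listed at 0 in all libraries, and 8 to 13 were above 0 in any one library. The gene's level was thus more alike between GFP replicates (1.14-fold) than the level of either leading model.

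The remaining TRIM9 models were near 0 in every library. ENST00000338969.9 (12 exons, 3312 bases) reached at most 0.0938 FPKM, in GFP replicate 2. ENST00000555170.1 (2 exons) reached 0.153 FPKM, also in GFP replicate 2. ENST00000557456.5 (4 exons) reached 0.173 FPKM in TRIM9-trigger replicate 2 and was listed at 0 in 4 libraries. ENST00000555933.1 (3 exons) had 0.111 and 0.101 FPKM with the TRIM9 trigger and was listed at 0 in the other 4 libraries. The 5 models other than ENST00000360392.4 summed to 1.21 and 1.52 FPKM with the TRIM9 trigger. Their sum was 1.56 and 2.33 FPKM in GFP cells, and 0.941 and 1.63 where the plasmid held the BCL2L11 trigger. These sums overlapped between the TRIM9 and BCL2L11 triggers and lay below both GFP values with the TRIM9 trigger. That order, of 2 libraries against 2, was not tested.

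**Figure D3:**
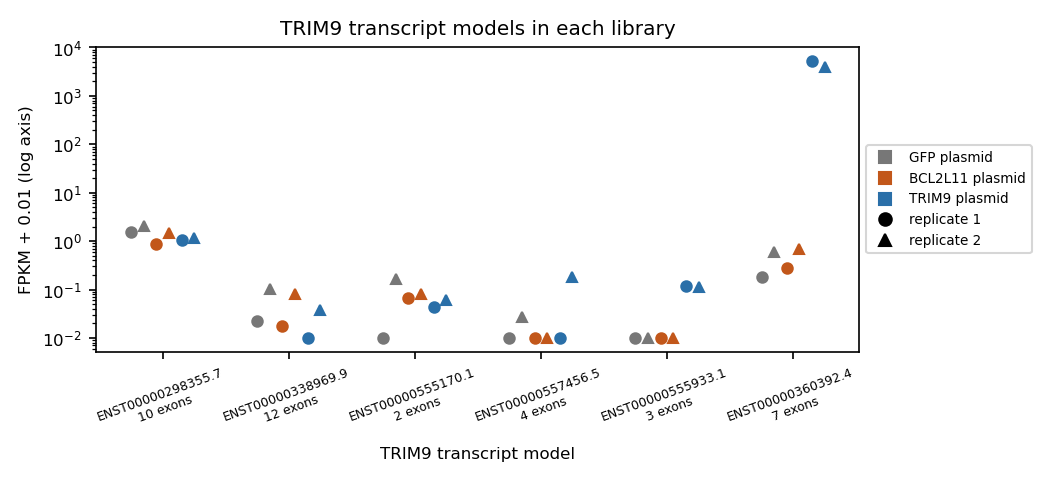
FPKM plus 0.01 (log axis) of each of the 6 TRIM9 transcript models in each library, with colour for the plasmid and shape for the replicate. ENST00000360392.4 lies at 5296 and 3947 FPKM with the TRIM9 trigger, and ENST00000298355.7 lies between 0.877 and 2.07 in all 6 libraries.

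Tested model by model, the trigger was called for TRIM9 and not for BCL2L11. For models and for 3′ end groups too, a rise with the own trigger was set by the design. The values of single models also hold how StringTie divided the reads, so this contrast is no difference between the genes themselves. The fit held 46728 models with at least 0.5 FPKM in at least 2 libraries, among them 5 of the 23 BCL2L11 models and 2 of the 6 TRIM9 models. All 5 BCL2L11 models have the distal end. Of these, ENST00000615946.4 and ENST00000619294.4 would not have passed this filter without the libraries with the trigger. No model of any gene was called with the BCL2L11 trigger against GFP (0% of models in limma, with 1326 at an unadjusted p under 0.05). On the log2 scale ENST00000620862.4 stood at 8.65 (SE 0.57, adjusted p = 0.165 in limma) and ENST00000621302.4 at 11.32 (SE 0.82, adjusted p = 0.165 in limma). ENST00000393256.8 had the widest error, 10.11 (SE 1.37, adjusted p = 0.954 in limma). ENST00000615946.4 stood at 5.42 (SE 0.60) and ENST00000619294.4 at 2.28 (SE 0.87). With the TRIM9 trigger 1 model was called, 0.00214% of models, and it was ENST00000360392.4 at 11.71 (SE 0.44, adjusted p = 0.00566 in limma). This call was kept in 6 of 13 alternative fits and ended without GFP replicate 1 (adjusted p = 0.114), GFP replicate 2 (0.117), TRIM9 replicate 1 (0.152) or TRIM9 replicate 2 (0.137), in limma, with log2 fold changes of 11.49 to 11.93. It also ended with a pseudocount of 0.1 (0.0543), without the filter (0.134) and when the library sets entered the fit (0.0986). Between the triggers 1 model was again called, 0.00214% of models, ENST00000360392.4 at -11.62 (SE 0.44, adjusted p = 0.00593 in limma). That call was kept in 7 of 13 alternative fits, with log2 fold changes of -11.41 to -13.07 over all of them. It ended without BCL2L11 replicate 1 (adjusted p = 0.0530), TRIM9 replicate 1 (0.158) or TRIM9 replicate 2 (0.142) in limma. It also ended with a pseudocount of 0.1 (0.0615), without the filter (0.139) and when the library sets entered the fit (0.102). Without BCL2L11 replicate 2 ENST00000621302.4 passed beside it (12.67, adjusted p = 0.0385 in limma).

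Summed by 3′ end, a unit chosen after the model values were seen, the distal BCL2L11 end was called as well. The fit held 33943 end groups of all genes, 1 of the 9 of BCL2L11 and 2 of the 6 of TRIM9. With the BCL2L11 trigger the distal end of BCL2L11 stood at 11.04 (SE 0.41, adjusted p = 0.00185 in limma, 11.42 and 10.66 within the library sets) and was the 1 group called, 0.00295% of groups. Its call ended without the filter on low values (adjusted p = 0.0815 in limma) and was kept in 12 of 13 alternative fits. With the TRIM9 trigger the end of ENST00000360392.4 stood at 11.71 (SE 0.37, adjusted p = 6.61e-04 in limma, 12.14 and 11.28 within the sets). It was again the 1 group called, 0.00295% of groups, and was kept in all 13 alternative fits. That end holds only this 1 model, so its values are those already tested model by model. Only the set of features in the fit differs, and the call is no second result. Between the triggers the distal BCL2L11 end and this end were called and no other, 0.00589% of groups. The distal TRIM9 end, that of ENST00000298355.7, stood at -0.40 (SE 0.34, adjusted p = 1 in limma) with the TRIM9 trigger against GFP, at -0.30 and -0.50 within the sets. With the BCL2L11 trigger it stood at -0.37 (SE 0.34, adjusted p = 1 in limma), so neither difference passed. The distal BCL2L11 end stood at -0.02 (SE 0.41) with the TRIM9 trigger, and the end of ENST00000360392.4 at 0.09 (SE 0.37) with the BCL2L11 trigger.

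**Figure D4:**
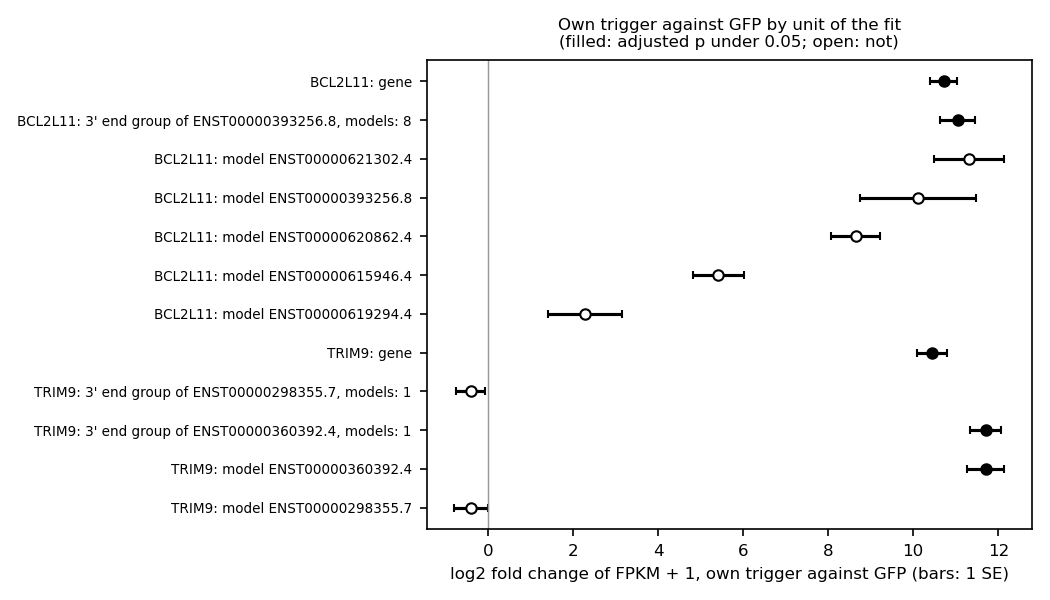
Log2 fold change of FPKM plus 1, own trigger against GFP, with 1 SE, for the gene sums, the 3′ end groups and the transcript models of BCL2L11 and TRIM9 that were tested (filled: adjusted p under 0.05 in limma, open: not). The gene and the distal end group of BCL2L11 are filled while its 5 models are open. For TRIM9 the gene, the model ENST00000360392.4 and its end group, which holds only this model, are filled.

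The authors' deposited table for the BCL2L11 trigger gave BCL2L11 a fold change of 7536 (log2 12.88), the highest of 5930 genes listed, with a p-value of 0.0240 and a q-value of 0.99998. The authors' deposited table for the TRIM9 trigger gave TRIM9 a fold change of 3527 (log2 11.78), the highest of 6131 genes listed, with a p-value of 0.0191 and a q-value of 0.9999. By p-value they were number 96 and number 62 in the authors' deposited tables, in which 0 and 0 genes had a q-value under 0.05. The ratio of the mean summed FPKM to that of GFP cells was 1970 for BCL2L11 and 1984 for TRIM9 in the StringTie tables. The sources used here do not say how the authors' folds were computed.

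Of 7 other genes at or next to these loci, MIR4435-2HG and TMX1 were expressed highly enough to be tested, and neither passed against GFP. The other 5 were below the filter and were not tested. MIR4435-2HG, a long non-coding RNA gene on the opposite strand that spans all of BCL2L11 (chromosome 2, 111006015 to 111523376), had 3.64 and 4.07 FPKM in GFP cells. It had 4.76 and 3.02 FPKM where the plasmid held the BCL2L11 trigger (log2 difference -0.01, SE 0.32, adjusted p = 0.9999 in limma). With the TRIM9 trigger it had 4.42 and 4.41 FPKM, above both GFP values (log2 difference 0.16, SE 0.32). The values with the BCL2L11 trigger overlapped those of GFP cells. ACOXL, which ends 830 bases before BCL2L11 on the same strand, had 0.0442 and 0.0224 FPKM with the trigger against 0.297 and 0.0772. AC108463.2, the next gene behind it, had 0 and 0.439 FPKM with the trigger and 0 and 0.247 in GFP cells. Within TRIM9, AL358334.4 and AL591770.1 lie on the opposite strand and were at most 0.0753 and 0.0435 FPKM in any library. Of the nearest genes outside TRIM9, AL358334.2 was at most 0.0696 FPKM and TMX1, a thioredoxin-like transmembrane protein gene, had 20.2 and 39.8 FPKM with the TRIM9 trigger against 25.2 and 32.7 in GFP cells (log2 difference -0.01, SE 0.47).

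The listed genes of the BIM and TRIM9 pathways had no call in limma in any of the 3 comparisons, and 0 of them had an unadjusted p under 0.05. Of all 15183 genes, 83 had an unadjusted p under 0.05 in limma with the BCL2L11 trigger, 175 with the TRIM9 trigger and 98 between the triggers. At those low shares a count of 0 in lists of this size is no sign of an absent change. Over all genes 0.00659% were called in each comparison with GFP and 0.0132% between the triggers, so lists of this size would hold no call at that share, and the counts of 0 below say nothing particular to these genes. In the BCL2 family without BCL2L11, 12 of 15 genes were tested and 0 rose or fell in any of the 3 comparisons. Their median log2 fold change was 0.08 with the BCL2L11 trigger and -0.09 with the TRIM9 trigger, beside -0.08 and -0.04 over all 15183 genes. Of lowest p with the BCL2L11 trigger were BBC3, which encodes the BH3-only protein PUMA (0.69, SE 0.59), the pore-former BAK1 (0.43, SE 0.39) and the BH3-only gene HRK (-0.34, SE 0.31). BBC3 had 31.8 and 14.6 FPKM with this trigger against 8.71 and 19.3 in GFP cells. BAK1 had 25.4 and 13.4 FPKM against 11.9 and 15.3. Both were thus higher than GFP in set 1 and lower in set 2, while HRK was lower in both sets. With the TRIM9 trigger those of lowest p were BAK1 (0.28, SE 0.39), PMAIP1, the gene of NOXA (-0.26, SE 0.41), and HRK (-0.20, SE 0.31). Each of these changed direction between the library sets. Of the regulators and partners of BIM, all 12 were tested and 0 passed, with medians of -0.19 and -0.25. MAPK3, the gene of the kinase ERK1 that marks BIM for degradation, stood at 0.30 (SE 0.32) with the BCL2L11 trigger and 0.50 (SE 0.32) with the TRIM9 trigger. DDIT3, the gene of the stress factor CHOP that can induce BIM, stood at -0.28 and -0.67 (SE 0.36). JUN, which encodes a subunit of the transcription factor AP-1, stood at -0.49 (SE 0.37) with the TRIM9 trigger.

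Of the class I tripartite motif genes besides TRIM9, 4 of 5 were tested and 0 passed, beside 0.00659% of all genes called in each comparison with GFP. Their medians were -0.19 with the BCL2L11 trigger and -0.02 with the TRIM9 trigger. TRIM46, which organises microtubules in the axon, stood at 0.40 (SE 0.26) with the TRIM9 trigger, and TRIM36 at -0.23 (SE 0.36). MID1, a microtubule-binding ubiquitin ligase, stood at -0.09 (SE 0.50). With the BCL2L11 trigger TRIM36 stood at -0.31 (SE 0.36), MID1 at -0.26 (SE 0.50) and MID2 at -0.13 (SE 0.57). Of the TRIM9 partners 4 of 7 were tested and 0 passed, beside the same share of all genes, with medians of -0.02 and 0.01. The actin regulator ENAH stood at -0.39 (SE 0.50) with the BCL2L11 trigger and -0.22 (SE 0.50) with the TRIM9 trigger. NTN1, which encodes the guidance cue netrin-1, stood at 0.23 (SE 0.39) and 0.03 (SE 0.39). EVL stood at -0.12 (SE 0.34) with the BCL2L11 trigger and VASP, a partner of TRIM9 in neurons, at 0.02 (SE 0.39) with the TRIM9 trigger.

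The genes whose levels followed each gene most closely over the 6 poly-A libraries are given as the 3 of highest correlation, and their levels differed far less between the groups. By Pearson's r on log2 of FPKM plus 1, those most like BCL2L11 were ANKRD26P1 (0.985), AC093484.4 (0.973) and RPL37A-DT (0.969). ANKRD26P1 had 1.04 and 1.32 FPKM with the BCL2L11 trigger and 0.0689 to 0.176 in the other 4 libraries. Those most like TRIM9 were TAF9 (0.995), AC026124.2 (0.985) and MSX2P1 (0.980). TAF9, a subunit of the general transcription factor TFIID, had 23.5 and 23.1 FPKM with the TRIM9 trigger and 19.3 to 19.7 elsewhere, and MSX2P1 had 2.08 and 1.22 against 0.0324 to 0.0609. These r values are a description of 6 libraries, of which 2 set the pattern, and none of the 6 genes passed against GFP.

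The line's own markers were present in all libraries. NEFM, INA, NEFL and WT1, known in this line, reached 1 FPKM in at least 2 libraries and PAX2 did not, at 0.613 or less, and the 5 summed to 42.6 to 57.9 FPKM in GFP cells, 50.7 to 54.8 with the BCL2L11 trigger and 48.9 to 58.2 with the TRIM9 trigger. Neuron markers, listed because TRIM9 is known from neurons, summed to 3.96 to 4.99 FPKM in GFP cells. They summed to 3.66 to 5.11 FPKM with the BCL2L11 trigger and 4.10 to 5.26 with the TRIM9 trigger. Of the 5 neuron markers, 3 reached 1 FPKM in at least 2 libraries. These were SYT1 (0.367 to 2.74 FPKM), STMN2 (0.981 to 1.72) and RBFOX3 (0.754 to 1.81). SNAP25 was at 0.358 FPKM or less and DCX at 0.0206 or less. The 5 epithelial markers summed to 33.4 to 46.9 FPKM in GFP cells, 27.3 to 55.0 with the BCL2L11 trigger and 32.8 to 59.6 with the TRIM9 trigger, a range that overlaps that of the line's own markers. The keratin genes KRT18 (18.3 to 45.3 FPKM) and KRT8 (6.98 to 14.2) made up most of it, and KRT19 was listed at 0 throughout. The 5 blood markers summed to 3.05 to 7.71 FPKM in GFP cells, 3.07 to 6.15 with the BCL2L11 trigger and 4.09 to 8.36 with the TRIM9 trigger. HBA1, a haemoglobin gene, had 2.35 to 7.45 FPKM of this, and PTPRC, CD3E and HBB were listed at 0 throughout. The 5 fibroblast markers summed to 1.43 to 1.97 FPKM in GFP cells, 2.14 to 5.94 with the BCL2L11 trigger and 2.27 to 3.19 with the TRIM9 trigger. Both trigger sums lay above GFP, an order of 2 libraries against 2 that was not tested. Single markers differed in direction. COL1A1, a collagen gene, had 1.27 to 4.02 FPKM over the 6 libraries. COL1A2 had 1.56 FPKM in BCL2L11-trigger replicate 1 and was listed at 0 in the other libraries, and DCN was at 0.0348 FPKM or less. The part of these markers in the differences between groups was not tested.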

How the data were processed

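Per the submitters' processing notes STAR, StringTie 2.1.3, cutadapt 3.4 and DESeq2 1.20.0 were used with hg38, and the sources used here do not say how. Each poly-A table lists, per the file headers, a model's FPKM and its coverage signal, the mean number of reads over a base. Per gene the authors deposited a p-value, a q-value, a log2 value and the fold change behind it, a linear ratio. Small RNA tables were not used here.

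Models with gene_name BCL2L11 or TRIM9 were taken from the 6 tables. FPKM was summed by gene, and by 3′ end with ends within 50 bases joined. A limma 3.58.1 fit (R 4.3.3, trend, group only, 6 libraries) on log2 of FPKM plus 1 was made over all features with at least 0.5 (models, end groups) or 1 (genes) FPKM in at least 2 libraries. Fold changes are on this scale, which understates those of low genes. Tests were two-sided, adjusted by Benjamini-Hochberg over all features, and called under 0.05. Fits were tested on simulated data. The members and lists were chosen with earlier results of these data known. Named were, per gene, the 8 models of highest mean in the own-trigger libraries and the 4 of highest mean in the others, models that passed, the 3 members of lowest p per list (1 of which is not reported here), overlapping and nearest genes, and the 3 genes of highest r. ENST00000308659.12 and ENST00000610735.4 were named after their values were seen.

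Alternatives were a pseudocount of 0.1, a filter of 5 FPKM, no filter, rescaling by trimmed means of log ratios (30% of ratios and 5% of levels trimmed from each side, unweighted), no trend, a fit of only the groups compared, the library set as a block, leaving out each library, and shares of aligned bases in place of FPKM.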

Additional observations from a re-analysis of the deposited data

How the results depend on the processing

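Of 728 values recomputed under alternatives, 668 kept their direction and their side of the threshold or stayed within 1.5 times. Many of them were counts of 0 for the listed genes or differences far from the threshold, which had little room to change. The total is therefore no measure of how firm the calls are. Models called with the TRIM9 trigger against GFP went from 1 to 0 with a pseudocount of 0.1, no filter or the library-set term (0 in each), and ranged from 0 to 1 when 1 library was left out. Between the triggers they went to 0, 0 and 0 under the same settings and to 3 with a filter of 5 FPKM, where ENST00000620862.4 and ENST00000621302.4 passed beside ENST00000360392.4, and ranged from 0 to 2 when 1 library was left out. Genes called with the TRIM9 trigger went from 1 to 4 with the compared groups alone and to 6 with the library-set term, and ranged from 1 to 5 when 1 library was left out (5 without BCL2L11 replicate 1 or 2). End groups called with the BCL2L11 trigger went to 0 without the filter and ranged from 1 to 2 over the fits without 1 library (2 without BCL2L11 replicate 1), and those with the TRIM9 trigger went to 2 with the compared groups alone and ranged from 1 to 2 (2 without BCL2L11 replicate 1 or 2). The cause was not tested. The labels number the libraries 1 to 6 and give no pairing, so the library-set term is only a split by title number. Differences near 0 changed sign when 1 library was left out. These were BCL2L11 with the TRIM9 trigger (-0.45 to 0.11) and TRIM9 with the BCL2L11 trigger (-0.57 to 0.0092). Among models and their ends they were ENST00000360392.4 with the BCL2L11 trigger (-0.13 to 0.31), ENST00000298355.7 between the triggers (-0.18 to 0.23) and, with the TRIM9 trigger, ENST00000393256.8 (-0.38 to 1.48), ENST00000615946.4 (-0.30 to 0.014), ENST00000620862.4 (-0.085 to 1.14), ENST00000621302.4 (-0.59 to 0.26) and the distal BCL2L11 end (-0.39 to 0.35, and 0.024 with rescaled FPKM). A library left out leaves 1 library in its group, which is assumed to vary like the others. The read number behind each FPKM is unknown, so counting error could not be given.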

Other observations

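Genes whose leading model changed between replicates, as for BCL2L11, were common in these tables. Of 407 genes with at least 2 models and at least 100 FPKM in both libraries of the BCL2L11 trigger, 298 (73.2%) had the same leading model in both. By 3′ end group it was 339 of 384 genes (88.3%). BCL2L11 was among those whose leading model differed and among those whose leading end was the same. In GFP cells, of 11672 genes with at least 1 FPKM in both libraries, 8363 (71.7%) had the same leading model, and 9956 of 11224 (88.7%) the same leading end. BCL2L11 again differed by model and kept its distal end, while TRIM9 kept its leading model in each of the 3 groups. With the TRIM9 trigger, 336 of 399 genes (84.2%) with at least 100 FPKM in both libraries had the same leading model. The genes counted were not matched to BCL2L11 or TRIM9 in number of models. These shares thus do not tell how usual either gene is among genes with as many models.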
